A study of Zea mays with 12 samples.

Results

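The 25 genes described here had transcript levels that stepped up through the life of the persistent synergid cell of maize, at each sampled time after pollination. They were found in the deposited FPKM table (fragments per kilobase of gene length and per unit of sequencing depth) of 45246 genes and loci. A gene was taken if it carried a Zm identifier and no entry in the table's domain column, if its stage mean was at least 1.5-fold that of the stage before at each of 3 steps, if its means were at least 0.5 FPKM before pollination and at least 10 FPKM at the last stage, and if each library of the last stage lay above each library of the first. The genes were thus selected on their FPKM in these 12 libraries, and their levels, like the calls counted on them further on, are given as a description that supports no claim about them. The domain column is headed as a transcription factor family but holds 634 different protein domain entries in 12538 rows, including 1433 rows of protein kinases, so that kinases, many transporters and many enzymes were set aside together with the transcription factors. Of the 31065 genes with an identifier and no such entry, 4528 passed the conditions on the first and last stage, 35 of these passed the first and second steps, and 25 passed all 3 steps. The same rule turned round, with a fall at each step, held for 17 genes.

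The samples were synergid cells of the inbred line B73 before pollination (SC, 0 HAP, hours after pollination) and persistent synergid cells sampled at 12 HAP (pSC12), at 18 HAP (pSC18) and at 24 HAP (pSC24), with 3 libraries per stage and 12 in all. Each library was made from 25 to 28 cells isolated by hand, with amplified cDNA, so that each one is an average over a small pool and not a single cell. All stages shared the genotype, and the labels name no treatment other than pollination. In such pools, fewer cells of a type and less RNA per cell cannot be told apart.

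The synergid pair lies beside the egg cell at the entrance of the embryo sac, where it secretes peptides that guide the pollen tube. One of the pair dies when the pollen tube bursts inside it, and the other, the persistent synergid cell, remains until it is eliminated after fertilization. RALF peptides, which are secreted cysteine-rich signals, act in many plant tissues through receptor kinases of the FERONIA type together with GPI-anchored LORELEI-like proteins (LLG), and this ligand and coreceptor pair has been studied mainly in Arabidopsis.

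Total counts on genes ranged between 15435736 and 26539602 per library. The 8 synergid marker genes were all above 1 FPKM, with summed levels of 190915 to 249945 FPKM in pSC24 libraries and 247184 to 286621 FPKM in SC libraries and a low of 151654 to 158748 FPKM in pSC12 libraries. This sum is made up mostly of a few very abundant genes, and 2 of the 8 were at least 1.5-fold lower in pSC24 than in SC. The MYB98 gene (Zm00001eb212880), for a transcription factor that drives synergid differentiation in Arabidopsis, had 59.7, 55.2 and 178.6 FPKM in pSC24 libraries against 1048, 1205 and 1106 FPKM in SC libraries, and Zm00001eb211380 averaged 5051 FPKM in pSC24 against 27531 FPKM in SC. Both egg cell genes were detected, at a summed 42.8 to 119 FPKM in pSC24 libraries against 172 to 428 FPKM in SC libraries. The 38 endosperm genes summed to 141 to 211 FPKM in pSC24 libraries against 63.0 to 76.1 FPKM in SC libraries, and 34 of them were at 0 in every library, but the 16 kDa gamma-zein gene Zm00001eb099950, which encodes a seed storage protein, had 0 FPKM in all SC and pSC12 libraries, 0, 0.346 and 0 FPKM in the pSC18 libraries and 61.1, 75.3 and 149.5 FPKM in the pSC24 libraries. It moved with the last step of the 25 genes, and its part in that step was not tested. Of 142 genes of dividing cells 73 reached 1 FPKM at any stage, and 8 of these were at least 1.5-fold higher in pSC24 than in SC and 49 at least 1.5-fold lower. Of 158 pollen genes 33 reached 1 FPKM, with 9 higher and 10 lower by the same measure, and of 94 genes of green tissue 12 did, with 5 higher and 4 lower. None of the 25 genes belonged to these lists. The libraries also fall into 2 sets by the share of reads that mapped, a lower set with every library of SC and pSC18 plus the first replicate of pSC24, and a higher set with every library of pSC12 plus replicates 2 and 3 of pSC24, so that every single step between neighbouring stages crosses from one set to the other except for pSC24 replicate 1 over pSC18.

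The 25 genes together made up a small but growing share of the transcripts. Their summed level was 172 to 268 FPKM in SC, 392 to 506 FPKM in pSC12, 877 to 1178 FPKM in pSC18 and 2103 to 2769 FPKM in pSC24 libraries. No library of a stage overlapped with one of a neighbouring stage in this sum. As a share of counts this was 0.0170% to 0.0240% in SC and 0.235% to 0.302% in pSC24 libraries. The highest pair of genes supplied 34.6% to 41.1% of the sum in pSC24 libraries against 41.3% to 56.4% in SC libraries, so the sum was not carried by them alone.

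**Figure D1:**
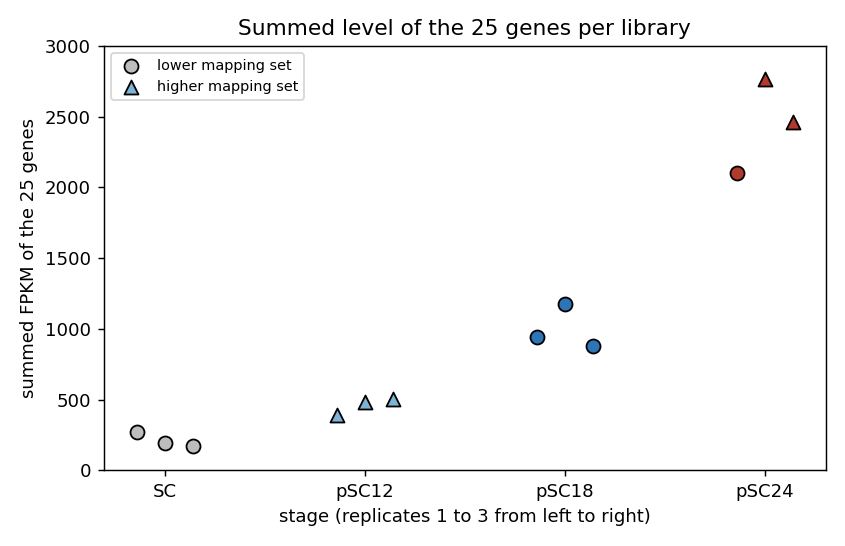
Summed FPKM of the 25 genes (vertical axis) in each of the 12 libraries, by stage, with the shape of the point giving the mapping set. The sums are 172 to 268 FPKM in SC, 392 to 506 FPKM in pSC12, 877 to 1178 FPKM in pSC18 and 2103 to 2769 FPKM in pSC24, and pSC24 replicate 1, the one library of that stage in the lower mapping set, is the lowest of the 3.

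**Figure D2:**
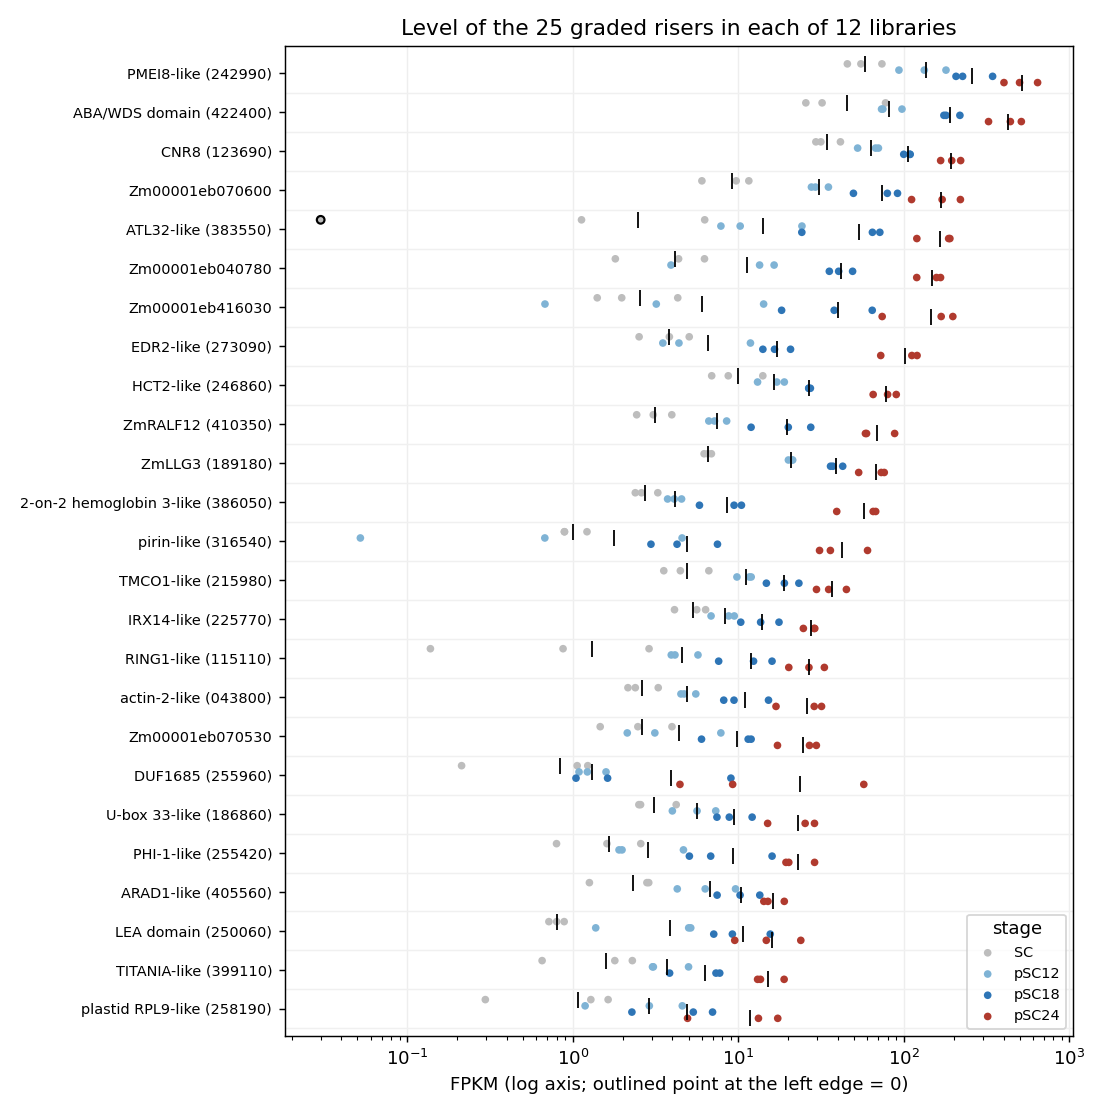
FPKM of each of the 25 genes (log axis) in each of the 12 libraries, with points coloured by stage and a black tick at each stage mean. The genes are ordered by their pSC24 mean, between 514 and 11.8 FPKM, and the libraries of neighbouring stages overlap in 15 of the 25 genes at 1 step or more.

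The overall rise of pSC24 over SC was between 5.12-fold and 67.04-fold, with a median of 11.02-fold, and exceeded 10-fold in 14 genes. The omission of a single SC or pSC24 library moved this rise by over 1.5 times in 5 genes, the ATL32-like, RING1-like, ABA/WDS and DUF1685 genes and Zm00001eb416030. The median steps were close to each other, at 2.28-fold for pSC12 over SC, 2.24-fold for pSC18 over pSC12 and 2.43-fold for pSC24 over pSC18. The largest step was the first in 10 genes, the second in 4 and the third in 11. The first step spans 12 h and the others 6 h each. Per hour counted from pollination, the log2 change was largest over the last 6 h in 15 genes, over the middle 6 h in 9 and over the first 12 h in 1. By the study's timing, fertilization came some hours after pollination, within the first step. The hourly rate of that step, and so this count, depends on the starting point taken. The rise was most even in the genes for cell number regulator 8, the pectinesterase inhibitor and actin-2, whose largest and smallest steps differed by 1.11-fold, 1.22-fold and 1.253-fold. It was least even in the pirin-like gene, at 4.89-fold.

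**Figure D3:**
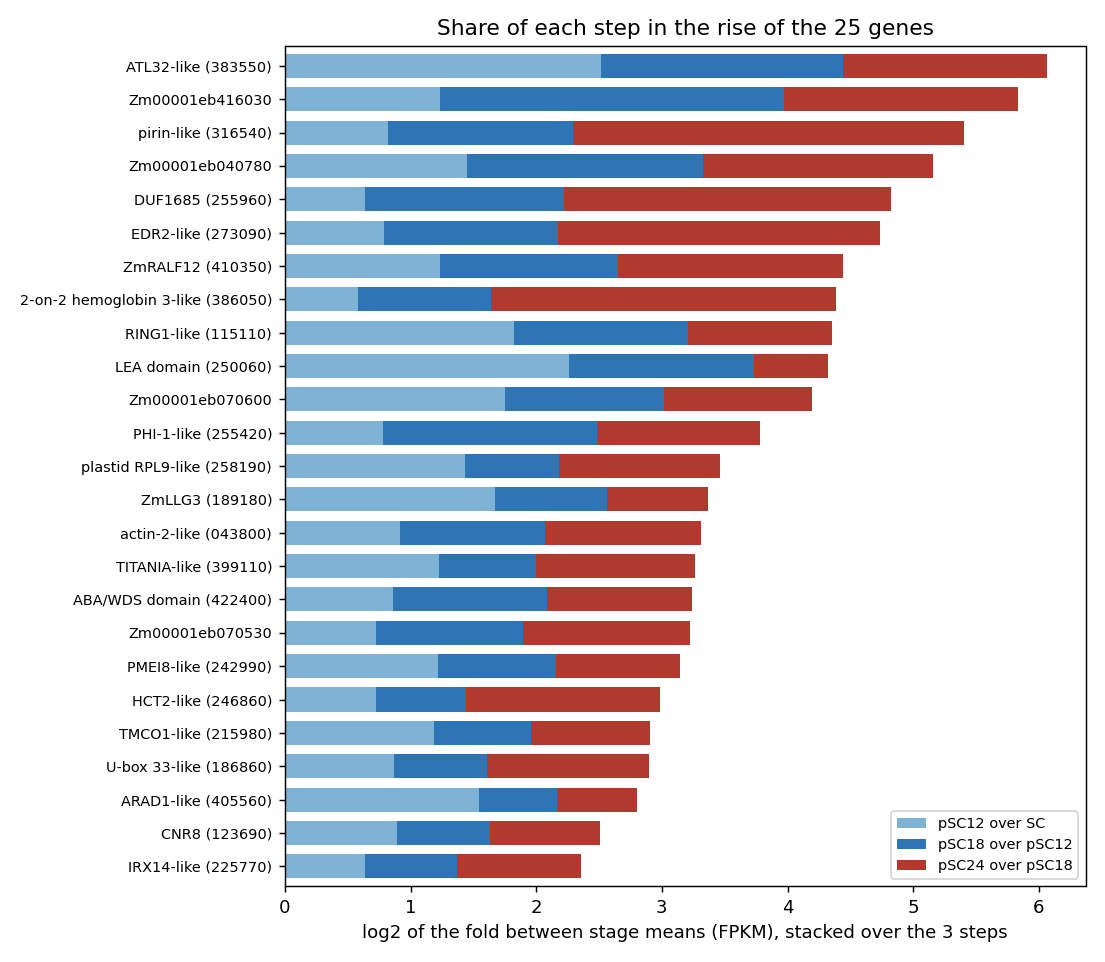
The log2 rise of pSC24 over SC for each of the 25 genes (horizontal axis), divided into its 3 steps by colour and ordered by size. The whole bars reach between 5.12-fold and 67.04-fold, the first step is the widest part in 10 genes and the last step in 11.

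In the fit over all genes with edgeR, a gene was called when its adjusted p was below 0.05 and its log2 fold change exceeded 1 in size. The same libraries and contrasts chose the 25 genes, so the counts of calls and of separate groups follow in large part from the rule, and nothing is read from them against the background. All 25 genes met the threshold, on the side of pSC24, in the comparison with SC (background 10.3% of 21143 genes tested). For the single steps, 7 of the 25 were called in pSC12 over SC (background 1.62%), 0 in pSC18 over pSC12 (background 0.0189%) and 11 in pSC24 over pSC18 (background 4.82%). For pSC18 over pSC12, 13 of the 25 had an unadjusted p under 0.05 in edgeR and a log2 fold change over 1, as 4.59% of all genes tested did, and DESeq2 called 8. The calls at single steps also depended on the fit. With the mapping set, described above, as a further term, 0 of the 25 were called in pSC12 over SC and 5 in pSC24 over pSC18. Only pSC24 has libraries in both sets, so this term is estimated from its replicate 1 against its replicates 2 and 3. SC and pSC12 lie wholly in different sets. For that step, a mapping effect and a loss of precision cannot be told apart in the lower count. For pSC12 over SC the count was 15 with total counts as library sizes, 3 without SC replicate 2, without SC replicate 3 or without pSC12 replicate 2, and 4 without pSC12 replicate 1. For pSC24 over pSC18 it was 7 without pSC24 replicate 2. Groups did not overlap in 14 of the 25 genes between pSC12 and SC (background 13.0%), in 18 between pSC18 and pSC12 (background 9.01%) and in 22 between pSC24 and pSC18 (background 17.2%). In 10 genes no step overlapped, in 11 genes 1 step did, in 2 genes 2 steps did, and in 2 genes, the DUF1685 gene and the gene for plastid ribosomal protein L9, all 3 did.

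Only the last step can be read within a mapping set, through a single pSC24 library that also took part in the choice of the genes. The level in pSC24 replicate 1 was at least 1.5-fold the pSC18 mean in 21 genes, and it fell short for ZmLLG3 at 1.38-fold, the ARAD1-like gene at 1.37-fold, the plastid ribosomal protein L9 gene at 1.01-fold and the LEA gene at 0.895-fold.

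When a single library was omitted, 11 of the 25 genes met the rule every time, among them ZmRALF12, ZmLLG3, the pectinesterase inhibitor gene, CNR8, the ATL32-like gene and the TMCO1-like gene. The library that mattered most was pSC12 replicate 3, without which 18 genes remained. The 7 lost were Zm00001eb416030, Zm00001eb070530 and the EDR2-like, hydroxycinnamoyltransferase, pirin-like, PHOSPHATE-INDUCED 1 and ARAD1-like genes. At the other end, all 25 remained without pSC24 replicate 1 and without pSC24 replicate 2. The truncated globin and IRX14-like genes, with steps near the limit, were each lost on omission of 1 of 3 libraries, SC replicate 1 being common to both.

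The ligand of the group was ZmRALF12 (Zm00001eb410350, Zm-B73-REFERENCE-NAM-5.0 chromosome 10, 24925839 to 24926805), a secreted peptide of the rapid alkalinization factor family. It had 2.43, 3.96 and 3.06 FPKM in SC, 7.18, 8.498 and 6.63 FPKM in pSC12, 11.9, 27.4 and 20.03 FPKM in pSC18, and 59.5, 58.6 and 87.9 FPKM in pSC24. The 4 stages did not overlap, and pSC18 was the most scattered of them. Its steps grew with time, at 2.36-fold, 2.66-fold and 3.47-fold, for a 21.8-fold rise in all, and the last step was 3.01-fold in pSC24 replicate 1 over pSC18. Of 22 rows with a RALF description, only ZmRALF12 and Zm00001eb131590 reached 1 FPKM at any stage. The level of Zm00001eb131590 was 0 in SC, 0.235 ± 0.0576 FPKM in pSC12, 1.49 ± 1.26 FPKM in pSC18 and 3.07 ± 1.22 FPKM in pSC24 (SD, n = 3).

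ZmLLG3 (Zm00001eb189180, chromosome 4, 168344785 to 168355517) encodes an LLG1-like GPI-anchored protein of the kind that serves RALF receptors as coreceptor in Arabidopsis. It was the most reproducible of the 25 genes in SC, with 6.54, 6.21 and 6.87 FPKM there, 20.1, 21.3 and 21.1 FPKM in pSC12, 36.0, 42.7 and 37.2 FPKM in pSC18 and 53.3, 76.1 and 72.99 FPKM in pSC24. All stages were separate from each other, and pSC24 replicate 1 was the lowest of its stage. In contrast to ZmRALF12, its largest step was the first, at 3.18-fold, followed by 1.86-fold and 1.75-fold. The most abundant LLG gene was not ZmLLG3 but Zm00001eb316280, with 166 ± 41.0 FPKM in pSC24 and 258 ± 21.4 FPKM in SC. A further gene, Zm00001eb253070, had 6.10 ± 3.38 FPKM in pSC24 and 1.26 ± 0.255 FPKM in SC (SD, n = 3), but its pSC18 mean of 1.97 FPKM lay below its pSC12 mean of 2.75 FPKM.

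**Figure D4:**
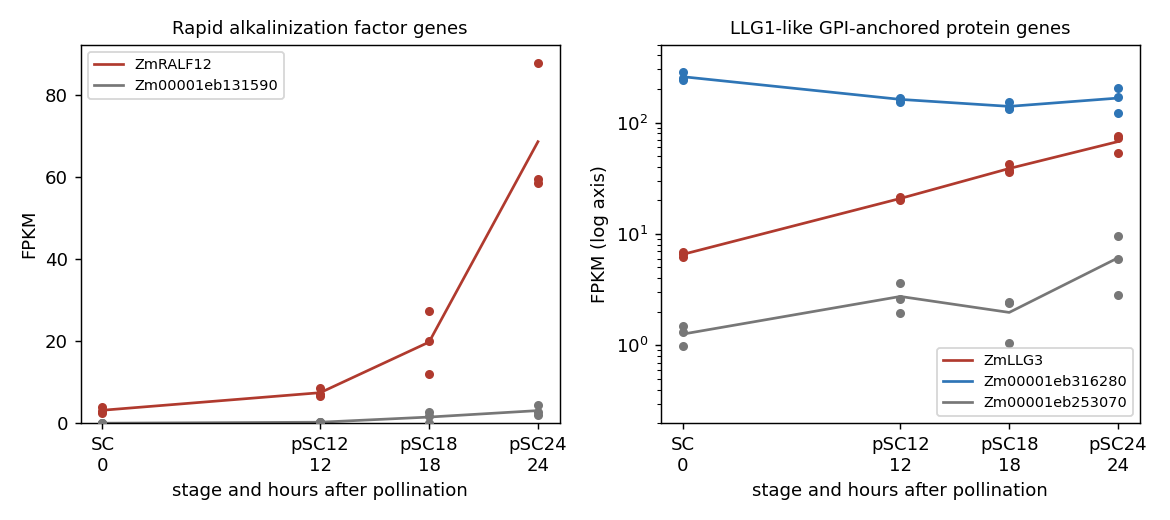
FPKM against hours after pollination for the RALF genes (left, linear axis) and the LLG genes (right, log axis) that reached 1 FPKM at any stage, with a point per library and a line through the stage means. ZmRALF12 ends at 68.6 FPKM and ZmLLG3 at 67.5 FPKM on average, while the LLG gene Zm00001eb316280 stays the highest of its family, at 166 FPKM in pSC24 and 258 FPKM in SC.

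Cell wall genes included the most abundant of the 25. Zm00001eb242990 (chromosome 5, 173166986 to 173167819) is described as pectinesterase inhibitor 8, a protein class that blocks the enzymes which remove methyl groups from pectin. It had 73.7, 55.0 and 45.5 FPKM in SC, 93.3, 133 and 179.5 FPKM in pSC12, 226, 343 and 206 FPKM in pSC18 and 402, 642 and 499 FPKM in pSC24. Stages did not overlap although the libraries within a stage differed widely. Of 79 rows with the inhibitor domain 24 reached 1 FPKM, and 9 of these were at least 1.5-fold higher in pSC24 than in SC and 7 at least 1.5-fold lower. Some of the 24 are described as pectinesterases as well as inhibitors. One of these, Zm00001eb333580, averaged 9.39 FPKM in SC and 239 FPKM in pSC24. The 4 highest of the 24 lay between 20698 and 37198 FPKM in pSC24 and between 25528 and 45932 FPKM in SC. They were thus far above Zm00001eb242990 at both stages. All 4 fell from SC to pSC12 and rose at both later steps, and their pSC24 means remained below their SC means. Zm00001eb304180, for example, averaged 40083 FPKM in SC, 23325 FPKM in pSC12, 30492 FPKM in pSC18 and 37198 FPKM in pSC24.

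Zm00001eb225770 (chromosome 5, 51756487 to 51761387) is described as IRX14, a xylosyltransferase of xylan backbone synthesis, and had the smallest overall rise of the 25 genes, 5.12-fold. Its levels were 4.11, 6.34 and 5.61 FPKM in SC, 8.74, 9.45 and 6.84 FPKM in pSC12, 13.6, 17.6 and 10.3 FPKM in pSC18 and 28.7, 28.9 and 24.7 FPKM in pSC24. No stages overlapped, and pSC24 had the lowest spread of all 25 genes at that stage, with a coefficient of variation of 8.66%. A second gene with the IRX14 description, Zm00001eb273460, averaged 4.93 FPKM in SC, 8.61 FPKM in pSC12, 9.77 FPKM in pSC18 and 18.6 FPKM in pSC24, and its middle step was too small for the rule. Reads from near-identical stretches may be split between the copies by the counting. The gene model of Zm00001eb225770 overlaps Zm00001eb225780 on the same strand, which did not exceed 0.849 FPKM in any library.

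The arabinosyltransferase gene Zm00001eb405560 (ARAD1-like, chromosome 10), whose Arabidopsis relative acts in the synthesis of pectic arabinan, was close to the rule's limit. It had 1.26, 2.88 and 2.80 FPKM in SC, 6.31, 9.62 and 4.28 FPKM in pSC12, 7.44, 13.5 and 10.2 FPKM in pSC18 and 14.3, 15.1 and 18.9 FPKM in pSC24. The pSC12 and pSC18 libraries overlapped, and the gene left the set in 5 of the 12 tests that omit 1 library. The PHOSPHATE-INDUCED 1 homolog Zm00001eb255420 (chromosome 5), of the EXORDIUM family of extracellular proteins, averaged 1.66 ± 0.889 FPKM in SC, 2.85 ± 1.57 FPKM in pSC12, 9.28 ± 5.87 FPKM in pSC18 and 22.8 ± 5.26 FPKM in pSC24 (SD, n = 3). Its pSC18 mean was raised by replicate 1, with 16.0 FPKM against 6.81 and 5.06 FPKM in the others, but the gene met the rule without that library. Its weaker step was the first, where SC and pSC12 overlapped, and it left the set without SC replicate 3 or without pSC12 replicate 3.

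Among other enzymes stood Zm00001eb246860 (chromosome 5), described as hydroxycinnamoyltransferase 2, an acyltransferase that joins hydroxycinnamic acids to acceptor molecules. It had 14.1, 8.69 and 6.90 FPKM in SC, 17.1, 18.95 and 13.1 FPKM in pSC12, 26.7, 27.2 and 26.6 FPKM in pSC18 and 65.2, 89.9 and 79.7 FPKM in pSC24. SC and pSC12 overlapped through SC replicate 1, whereas the pSC18 libraries were the tightest of any stage and gene. Of 31 rows with this description 4 reached 1 FPKM. The most abundant of the other three in SC, the putrescine hydroxycinnamoyltransferase gene Zm00001eb257730, went the opposite way, with 4.73 FPKM in pSC24 against 24.4 FPKM in SC.

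Ubiquitin ligase genes, whose products mark proteins for degradation, made up 3 of the 25. The steepest rise on the stage means was that of Zm00001eb383550 (chromosome 9, 69935321 to 69935977), an ATL32-like RING-H2 protein of a membrane-anchored ligase family. It had 6.26, 1.13 and 0 FPKM in SC, 7.85, 10.3 and 24.2 FPKM in pSC12, 71.5, 64.5 and 24.2 FPKM in pSC18 and 189.5, 186 and 119.7 FPKM in pSC24. Replicate 3 was high in pSC12 and low in pSC18, so that these stages overlapped narrowly. The 67.04-fold rise rests on SC counts of 0 to 70 per library, and it came to 293-fold without SC replicate 1 and 44.7-fold without SC replicate 3. Of 145 rows described as ATL, RING-H2 or RING1 proteins 38 reached 1 FPKM, and among these 20 were at least 1.5-fold higher in pSC24 than in SC and 8 at least 1.5-fold lower.

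Zm00001eb115110 (chromosome 2), a RING1-like ligase gene of the same family, had 2.89, 0.138 and 0.873 FPKM in SC, 3.93, 5.70 and 4.14 FPKM in pSC12, 12.4, 16.0 and 7.60 FPKM in pSC18 and 26.7, 33.1 and 20.2 FPKM in pSC24. The stages were separate, and SC replicate 2 was almost without counts. The 20.5-fold rise became 52.7-fold without SC replicate 1. Zm00001eb186860 (chromosome 4), described as U-box domain-containing protein 33, had 4.21, 2.57 and 2.51 FPKM in SC, 3.99, 5.63 and 7.30 FPKM in pSC12, 12.1, 8.81 and 7.43 FPKM in pSC18 and 25.3, 28.8 and 15.03 FPKM in pSC24. SC and pSC12 overlapped, and pSC12 replicate 3 came close to pSC18 replicate 3.

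Genes named for stress and hormone responses were led by Zm00001eb422400 (chromosome 10, 118634873 to 118635362), which carries the ABA/WDS domain of small proteins induced by abscisic acid, water deficit and ripening. It had 77.4, 32.0 and 25.6 FPKM in SC, 73.3, 97.3 and 74.6 FPKM in pSC12, 174, 218 and 179.7 FPKM in pSC18 and 324, 439.7 and 512 FPKM in pSC24. SC replicate 1 reached the level of pSC12, and without SC replicate 3 the first step was below 1.5-fold. The overall rise was 9.45-fold, and 14.8-fold without SC replicate 1. The 3 further genes with this domain that reached 1 FPKM were also at least 1.5-fold higher in pSC24 than in SC. Unlike in Zm00001eb422400, most of their log2 rise was in the last 6 h. Zm00001eb407710, for example, averaged 1.35 FPKM in SC, 0.974 FPKM in pSC12, 5.96 FPKM in pSC18 and 61.3 FPKM in pSC24.

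Zm00001eb273090 (chromosome 6) is similar to ENHANCED DISEASE RESISTANCE 2, which in Arabidopsis restrains cell death during infection. It had 5.05, 2.52 and 3.83 FPKM in SC, 4.38, 3.50 and 11.8 FPKM in pSC12, 14.1, 16.5 and 20.7 FPKM in pSC18 and 120.1, 112 and 72.5 FPKM in pSC24. The first step rested on pSC12 replicate 3, the other pSC12 libraries lying within the SC range, while the last step of 5.93-fold was clear in every library. Among the 8 genes of its DUF1336 family with 1 FPKM or more, 5, itself included, were at least 1.5-fold higher in pSC24 than in SC. Lower by the same measure was 1 gene. The next highest in pSC24, Zm00001eb045660, was level at 26.7 FPKM in pSC24 and 26.8 FPKM in SC, while Zm00001eb226650 had 26.1 FPKM in pSC24 and 14.4 FPKM in SC.

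The LEA gene Zm00001eb250060 (chromosome 5) carries a late embryogenesis abundant domain, which genes described as NDR1/HIN1-like also carry, and had the flattest end. It had 0.799, 0.887 and 0.717 FPKM in SC, 1.38, 5.01 and 5.16 FPKM in pSC12, 9.20, 7.10 and 15.6 FPKM in pSC18 and 9.51, 14.7 and 23.8 FPKM in pSC24. The last 2 stages overlapped, and the last step of 1.51-fold was among the smallest in the set. With TMM library sizes or total counts in place of the deposited scaling, it fell below the limit.

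Zm00001eb215980 (chromosome 5, 10512270 to 10516134) was the only gene of calcium signalling among the 25. It is described as a homolog of the calcium load-activated calcium channel TMCO1, which in human cells releases calcium from an overfilled endoplasmic reticulum. It had 4.46, 3.54 and 6.63 FPKM in SC, 11.7, 9.80 and 12.0 FPKM in pSC12, 23.2, 18.97 and 14.8 FPKM in pSC18 and 29.6, 44.9 and 35.1 FPKM in pSC24. No stages overlapped. A second gene with this description, Zm00001eb055560, remained low, with 2.46 FPKM in pSC24 against 1.996 FPKM in SC, and the related ER membrane protein complex subunit 3 gene Zm00001eb102120 had 80.2 FPKM in pSC24 against 83.4 FPKM in SC.

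Cell number regulator 8 (Zm00001eb123690, CNR8, chromosome 3, 15186650 to 15190286) belongs to the PLAC8 family, in which maize CNR1 limits cell number. It had the most even course of all, with 31.5, 41.4 and 29.4 FPKM in SC, 67.4, 70.1 and 52.5 FPKM in pSC12, 99.8, 109 and 109 FPKM in pSC18 and 167, 220.2 and 194 FPKM in pSC24. The steps were 1.86-fold, 1.67-fold and 1.83-fold, and no stages overlapped. CNR8 remained in the set whichever library was omitted. Of 7 PLAC8 genes with at least 1 FPKM, 3, CNR8 included, were at least 1.5-fold higher in pSC24 than in SC. Lower by the same measure was 1 gene. CNR6 (Zm00001eb404500) was the most abundant in SC and almost flat, at 48.4 FPKM in pSC24 and 41.5 FPKM in SC. CNR2 (Zm00001eb183220) rose more steeply than CNR8 but late, with means of 0.602 FPKM in SC, 0.546 FPKM in pSC18 and 38.1 FPKM in pSC24.

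Most of the log2 rise lay between 18 and 24 HAP in the truncated globin and pirin-like genes. The same held for the EDR2-like, hydroxycinnamoyltransferase and DUF1685 genes, so the late course was not particular to the genes described here. The truncated globin gene Zm00001eb386050 (two-on-two hemoglobin-3, chromosome 9), of a family of small oxygen-binding proteins and the only gene of its kind in the table, had 2.38, 2.60 and 3.26 FPKM in SC, 4.54, 4.10 and 3.74 FPKM in pSC12, 9.42, 10.4 and 5.82 FPKM in pSC18 and 39.3, 67.5 and 65.2 FPKM in pSC24. All stages were separate, yet the first step was 1.501-fold and the last 6.70-fold. The pirin-like gene Zm00001eb316540 (chromosome 7), encoding a cupin-type protein, had 0.891, 1.22 and 0.889 FPKM in SC, 0.0521, 0.678 and 4.57 FPKM in pSC12, 2.97, 4.26 and 7.48 FPKM in pSC18 and 36.0, 60.3 and 30.9 FPKM in pSC24. Its first step came from pSC12 replicate 3 alone, with both other pSC12 libraries below SC, and the last step was 8.65-fold. Another pirin gene, Zm00001eb042780, had a steeper course, with 0.144 FPKM in SC, 1.55 FPKM in pSC12, 19.7 FPKM in pSC18 and 35.4 FPKM in pSC24, but began below the 0.5 FPKM limit.

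Among the structural and nuclear proteins, the actin-2-like gene Zm00001eb043800 (chromosome 1) had 2.39, 3.28 and 2.15 FPKM in SC, 4.71, 4.50 and 5.53 FPKM in pSC12, 9.41, 8.16 and 15.2 FPKM in pSC18 and 16.9, 31.8 and 28.7 FPKM in pSC24. Its stages were separate. Actin genes encode a near-identical cytoskeletal protein and can share reads, so the level of a single copy is uncertain, but of the 13 actin genes with at least 1 FPKM only 3 were at least 1.5-fold higher in pSC24 than in SC. The most abundant one, Zm00001eb356050, had 92.7 FPKM in pSC24 against 132 FPKM in SC.

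The TITANIA-like gene Zm00001eb399110 (chromosome 9), a PHD-finger protein whose Arabidopsis relatives maintain meristems, had 2.29, 1.79 and 0.653 FPKM in SC, 3.07, 5.002 and 3.03 FPKM in pSC12, 7.72, 7.33 and 3.84 FPKM in pSC18 and 13.1, 18.9 and 13.6 FPKM in pSC24. Only pSC12 and pSC18 overlapped. The lowest of the 25 genes in pSC24 was Zm00001eb258190 (chromosome 5), which encodes ribosomal protein L9 of the plastid, with 1.63, 0.296 and 1.29 FPKM in SC, 2.90, 1.19 and 4.59 FPKM in pSC12, 2.27, 5.34 and 6.98 FPKM in pSC18 and 4.93, 13.2 and 17.3 FPKM in pSC24. Every pair of neighbouring stages overlapped, and 114 counts were the least in any pSC24 library.

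For 5 genes the table names no function, and 3 of these were among the most abundant. Zm00001eb070600 (chromosome 2, 10034629 to 10035918) had 9.70, 6.02 and 11.6 FPKM in SC, 27.6, 35.0 and 29.2 FPKM in pSC12, 91.5, 79.4 and 49.6 FPKM in pSC18 and 219, 170.2 and 111 FPKM in pSC24. Its stages were separate, its steps were all above 2-fold, and it kept its place in every alternative run, as only ZmRALF12 did besides. Zm00001eb040780 (chromosome 1, 214806286 to 214807311) had 6.24, 1.81 and 4.36 FPKM in SC, 16.4, 13.4 and 3.92 FPKM in pSC12, 35.4, 49.0 and 40.4 FPKM in pSC18 and 119.5, 166 and 157 FPKM in pSC24. Its pSC12 replicate 3 was at the SC level, and the later stages stood clear. Zm00001eb416030 (chromosome 10, 80989530 to 80990632) had 1.97, 1.40 and 4.31 FPKM in SC, 0.679, 3.19 and 14.2 FPKM in pSC12, 18.3, 64.4 and 37.9 FPKM in pSC18 and 73.9, 197 and 168 FPKM in pSC24. Its rise was 57.2-fold, next to that of the ATL32-like gene, but the order of these genes is not settled, since Zm00001eb416030 had the steeper rise without SC replicate 3 (86.7-fold, against 44.7-fold for the ATL32-like gene) and without pSC24 replicate 1 (71.3-fold, against 62.1-fold). Its 6.66-fold middle step was the largest such step of the 25, and its first step depended on pSC12 replicate 3.

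Zm00001eb070530 (chromosome 2, 9927372 to 9928096) had 3.97, 2.47 and 1.46 FPKM in SC, 2.13, 3.13 and 7.84 FPKM in pSC12, 11.9, 11.5 and 5.99 FPKM in pSC18 and 26.9, 29.6 and 17.2 FPKM in pSC24. The earlier stages overlapped and only pSC24 stood apart. The DUF1685 gene Zm00001eb255960 (chromosome 5) had 0.213, 1.23 and 1.06 FPKM in SC, 1.59, 1.09 and 1.22 FPKM in pSC12, 1.05, 1.62 and 9.02 FPKM in pSC18 and 9.24, 4.44 and 57.2 FPKM in pSC24. Replicate 3 supplied most of the pSC18 and pSC24 means, the overall rise of 28.3-fold was 8.18-fold without pSC24 replicate 3, and the gene left the set without replicate 3 of either stage, as well as without SC replicate 1 or pSC12 replicate 1. The same pSC24 library had the highest gamma-zein level, and whether these levels are related was not tested.

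Some features that the rule did not use were compared with the 4528 genes that passed the conditions on the first and last stage, as a description. On chromosome 5 lay 8 of the 25 genes, or 32.0%, against 12.3% of the larger group, and the remaining genes were spread over 8 further chromosomes. They did not form a cluster, since the nearest pair, Zm00001eb070530 and Zm00001eb070600 on chromosome 2, was 106533 bases apart with 6 genes between. The files give the biotype misc_non_coding to 4 of the 25 genes, Zm00001eb040780, Zm00001eb070530, Zm00001eb255420 and Zm00001eb250060, or 16.0% against 2.16% of the larger group. All 4 overlap a protein-coding gene in the RefSeq annotation of the same assembly, so that this label of the files is not shared by RefSeq. The median gene length was 1238 bases for the 25 genes and 1654 bases for the larger group. Of the 25 genes 20% were without a described function, close to 22.7% in the larger group, while 12.0% against 4.59% were in the ubiquitin list and 12.0% against 3.89% in the cell wall list.

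The limits of the rule cut through a continuum. The smallest step of the members just inside it was 1.501-fold in the truncated globin gene, 1.51-fold in the LEA gene and 1.54-fold in the ARAD1-like gene. Just outside were Zm00001eb202520, a subunit 26c gene of the mediator of transcription, and Zm00001eb146270, similar to PSK SIMULATOR 1, at 1.48-fold each, and the undescribed Zm00001eb404520 at 1.47-fold. Among the genes set aside for a domain entry, 18 met the same conditions on the stages. The most abundant were a UDP-glycosyltransferase gene, Zm00001eb318580, with means of 9.44 FPKM in SC, 26.997 FPKM in pSC12, 154 FPKM in pSC18 and 932 FPKM in pSC24, and a serpin gene, Zm00001eb333150, with 8.10, 12.8, 34.1 and 245 FPKM at the same stages. One protein kinase gene, Zm00001eb182940, was among them, at 11.5 FPKM in pSC24 against 0.752 FPKM in SC.

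The functional lists that held most of the 25 genes were then followed beyond them, leaving the 25 out. Over all genes tested 10.3% were called higher in pSC24 than in SC and 7.57% lower, with a median log2 fold change of 0.05. In the ubiquitin list 89 of 550 genes were called higher (16.2%) and 37 lower (6.73%), with a median of 0.23. By lowest adjusted p, those higher included the SINA-type ligase gene DIS1 (Zm00001eb329840, log2 fold change 2.23 ± 0.14, SE) and atg7 (Zm00001eb358160, 2.13 ± 0.18), whose product activates the ubiquitin-like proteins of autophagy. Those lower included the NPH3-domain gene Zm00001eb326040 (-1.83 ± 0.17) and a RING-variant gene, Zm00001eb340290 (-2.36 ± 0.24).

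In the cell wall and sugar list 90 of 551 genes were called higher (16.3%) and 40 lower (7.26%), with a median of 0.31. Endoglucanase 10 (Zm00001eb215310, log2 fold change 2.38 ± 0.14) and UDP-glucose 4-epimerase 2 (Zm00001eb042670, 3.13 ± 0.27) were higher. The glycosyltransferase BC10 gene (Zm00001eb155920, -1.45 ± 0.10) and a polygalacturonase gene (Zm00001eb382310, -5.81 ± 0.50), for an enzyme that cuts pectin, were lower. The polygalacturonase had 0.808 ± 0.705 FPKM in pSC24 against 44.8 ± 5.97 FPKM in SC (SD, n = 3), while the pectinesterase inhibitor among the 25 went the other way.

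In the calcium list 21 of 132 genes were called higher (15.9%) and 12 lower (9.09%), with a median of 0.21. The EF-hand genes CBP (Zm00001eb196390, log2 fold change 2.72 ± 0.20) and CML16 (Zm00001eb335400, 1.97 ± 0.17), for calcium sensors, were higher. Lower were an annexin gene (Zm00001eb336260, -1.48 ± 0.09), with 3098 ± 238 FPKM in pSC24 against 8555 ± 134 FPKM in SC (SD, n = 3), and the mitochondrial calcium uniporter protein 6 gene (Zm00001eb163750, -2.90 ± 0.22).

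In the list of chaperones, stress and senescence 30 of 232 genes were called higher (12.9%) and 17 lower (7.33%), and the median was -0.06. The LEA-domain genes Zm00001eb434140 (NDR1/HIN1-like 2, log2 fold change 2.79 ± 0.20) and Zm00001eb064120 (PCC27-45-like, 1.11 ± 0.12) were higher. Lower were a calreticulin gene (Zm00001eb096980, -1.02 ± 0.11), which encodes a calcium-binding chaperone, and a pathogen-related protein gene (Zm00001eb154120, -1.18 ± 0.14), both of which lost the call with total counts as library sizes, since their change then came to under 1 on the log2 scale. The calreticulin gene also lost it without SC replicate 2 or 3, without pSC18 replicate 1 or 2 and without pSC24 replicate 1.

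Genes without a described function were called higher in 402 of 3647 (11.02%) and lower in 305 (8.36%), and the median was 0.09. The DUF569 gene Zm00001eb212710 (log2 fold change 3.57 ± 0.24) and the DUF538 gene Zm00001eb286400 (2.14 ± 0.15) were higher, and the DUF3511 gene Zm00001eb239990 (-2.05 ± 0.11) and the IQ-DOMAIN 22 gene Zm00001eb428680 (-2.56 ± 0.16) were lower. Genes with other descriptions were called higher in 286 of 2827 (10.1%) and lower in 178 (6.30%), with a median of 0.06. IQ-DOMAIN 9 (Zm00001eb376600, 3.71 ± 0.25) and NETWORKED 4A (Zm00001eb123210, 3.43 ± 0.30), an actin-binding protein, were higher, and a TLC-domain gene (Zm00001eb029570, -2.04 ± 0.12) and TOM1-like 6 (Zm00001eb286670, -3.15 ± 0.20) were lower. The 24 genes named from the 6 lists had edgeR adjusted p-values of 8.9e-07 to 6.2e-05, and in each of them all 3 pSC24 libraries lay beyond every SC library.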

How the data were processed

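The authors isolated synergid cells by hand, amplified cDNA (SMART-Seq v4) and sequenced it. Reads were cleaned with cutadapt 1.15, mapped with HISAT2 2.0.5 (assembly Zm-B73-REFERENCE-NAM-5.0), and assigned to genes with featureCounts 1.5.0-p3, per the labels and methods. The authors deposited whole-number counts and FPKM. The deposited FPKM values equal the counts divided by gene length, the DESeq2 size factor and the geometric mean of the library totals, so stages are compared on that scale. Members and lists were chosen with earlier results of these data known. Stages came from the sample titles, 3 libraries each. The replicates are described as biological, but nothing in the labels ties a library to particular plants.

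Counts were fitted in R 4.3.3 with edgeR 4.0.16 and limma 3.58.1 (quasi-likelihood; TMM, filterByExpr, stage as the only term, all 12 libraries, 21143 genes, common dispersion 0.239), with Benjamini-Hochberg adjustment within each of 4 comparisons. The fit was tested on simulated data. Calls needed an adjusted p below 0.05 and more than 1 log2 unit of change. Rule and tables were computed with Python 3.11.15, pandas 2.3.3 and numpy 2.4.6, and figures with matplotlib 3.10.9. Functions were read from the deposited descriptions by word patterns, of which the first match counted. Marker patterns were narrowed after they had caught unrelated names. All 25 members are named. Other genes were named by a rule, the 2 with the lowest adjusted p in each direction in each of the 6 lists with most members among called genes whose higher stage had 10 FPKM or more; a tie for the sixth list was broken by list order. Mapping sets follow the library statistics of the study. Same-numbered libraries of different stages did not deviate together. Alternatives were DESeq2 1.42.0, other scalings, no filter on low counts, a replicate block, a mapping set term, other limits of the rule and each library left out. RefSeq genes were matched by overlap of coordinates, for 24 of the 25 members. Promoter sequences were not used here.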

Additional observations from a re-analysis of the deposited data

How the results depend on the processing

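The number of members, 25, became 89 with a looser step limit, 6 with steps of at least 2-fold and 10 when no libraries of neighbouring stages were allowed to overlap. It ran between 22 and 37 when a library was left out. A different rule, within mapping sets, gave 76 genes. It compared pSC18 with SC, pSC24 replicates 2 and 3 with pSC12, and pSC24 replicate 1 with pSC18. The steps of pSC12 over SC and pSC18 over pSC12 were not required, so 76 does not count genes that rise at each step. All 25 members met its conditions on pSC18 over SC and on pSC24 over pSC12. The 21 of the 25 kept are therefore those already counted for pSC24 replicate 1 over pSC18. Of the 25 genes 11 were kept whichever library was left out, and without pSC12 replicate 3 only 18 of them were kept. All 225 recomputed log2 folds of members in pSC24 over SC moved by less than the gene's own spread between replicates, and none changed sign. The rule fixes the sign whenever a library is left out, and a gene with scattered replicates sets itself a wide limit. These results therefore say little about how stable the folds are. The fold itself moved by over 1.5 times in 5 genes when an SC or pSC24 library was left out. Total counts as library sizes put the median log2 change over genes at 0.28 in pSC24 over SC and 0.27 in pSC12 over SC, with 2911 genes called higher and 1118 lower in pSC24 over SC, against 2170 and 1600 as reported. With a mapping set term, the genes called higher in pSC24 over SC fell to 1308, of which 23 were members, those in the lists to 167 (other descriptions), 212 (undescribed), 59 (ubiquitin), 54 (cell wall) and 13 (calcium), and the undescribed genes called lower to 195; the genes called in pSC24 over pSC18 were 389 higher and 361 lower, against 1019 and 689. For pSC12 over SC, 343 genes were called higher and 249 lower, against 565 and 554 with DESeq2, 979 and 149 with total counts and 13 and 29 with the mapping set term, and between 175 and 370 higher and 114 and 282 lower when a library was left out. For pSC18 over pSC12, 4 genes were called higher and 1 lower, against 339 and 88 with DESeq2, 53 and 7 without a filter, and 10 higher with DESeq2 size factors; 4 were lower with total counts, 0 higher with the mapping set term, and 0 to 34 higher and 0 to 6 lower when a library was left out. The replicate block gave 9 higher and 2 lower in that comparison and 2025 higher in pSC24 over SC; deviations of the 18 same-numbered pairs correlated at -0.06 to 0.09 and only 6 of 12 libraries matched best with their own number, so the numbers are not taken as pairs. The mapping set term rests on pSC24 replicate 1 against replicates 2 and 3, as no other stage has libraries in both sets. The causes of these differences were not tested. At low SC levels, down to 0 counts in a library, depth limits the precision of a fold.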
